A study of Mus musculus with 12 samples.

Results

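Transcripts of 9 genes of the Hedgehog pathway were followed in bulk RNA-seq of the mouse pylorus, the muscular outlet of the stomach. The genes were chosen by name as the core of the pathway, and all 9 were found among the 23420 genes of the count table: the ligands Shh and Ihh, the receptor Ptch1, the ligand-binding inhibitor Hhip, the signal transducer Smo, the negative regulator Sufu and the transcription factors Gli1, Gli2 and Gli3. All mice were C57BL/6. Wild-type mice were sampled at 60 days (D60WT) and at 80 days (D80WT), and mice of the genotype CEA424-SV40 T Ag at 60 days (D60SV) and at 80 days (D80SV), giving 4 groups of 3 libraries. In the transgenic mice the large T antigen of simian virus 40, a protein that inactivates the tumour suppressors p53 and Rb, is driven by a promoter fragment of the carcinoembryonic antigen gene, so the oncoprotein is made in epithelial cells of the pyloric region. The labels do not say whether the libraries of a group came from separate animals, so the p-values measure the spread between these libraries, which may be technical.

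Hedgehog ligands are secreted proteins that bind Ptch1, and binding releases Smo from inhibition by Ptch1. Active Smo acts through the primary cilium, frees the Gli factors from Sufu and turns on target genes, of which Gli1, Ptch1 and Hhip are the classical readouts; Ptch1 and Hhip feed back to limit the signal. In the stomach the ligands are made by the epithelium, and most of the response is read in the mesenchyme below it, where it patterns smooth muscle and fibroblasts.

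Library totals ran from 20121600 to 27633715 counts. Levels are given as CPM (counts per 1e+06 counts of the library) scaled with TMM factors, which correct for a few abundant genes taking up a library, and a gene was called when its adjusted p (edgeR quasi-likelihood test, Benjamini-Hochberg adjustment over all 15369 genes tested) was under 0.05. All 9 genes passed the filter on low counts, with between 15 counts (Gli1 in D60WT replicate 1) and 1702 counts (Ihh in D80WT replicate 1) in a library. Genes that define the pyloric epithelium were present in all libraries, their summed level running from 34352 to 146415 CPM. Xist and Y-linked counts showed that the 3 D60WT libraries were of male type and the 3 D80WT and 3 D60SV libraries of female type, while D80SV held 1 male-type library (replicate 1) and 2 of female type. Sex and genotype therefore cannot be told apart at 60 days, nor sex and age in wild-type mice. A sex covariate is set by D80SV alone, the only group with both types, so results with it rest on D80SV replicate 1. Duodenal enterocyte genes summed to 12151 CPM in D80WT replicate 3, against 689 and 3058 CPM in the other two libraries of that group. Pancreatic acinar genes summed to 5467 CPM in D80SV replicate 1, against 1281 and 1067 CPM in the other two, and the counts of calls were also computed without both of these libraries. D80WT replicate 1 lay farthest from the other libraries of its group in its counts (chi-square per degree of freedom 215 and 363, against 96.1 between the other two). It had the low pit cell sum of the group, 58058 CPM against 139515 and 148387 CPM, and the low Shh level. All 4 calls at 80 days held without it.

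Per kilobase of exon, the ligands stood highest. Mean levels over the 12 libraries were 15.9 CPM per kilobase for Ihh, 9.63 for Shh and 5.77 for Smo, against 1.29 for Sufu and 1.02 for Ptch1. The others lay close together, Gli3 at 0.772, Hhip at 0.722, Gli2 at 0.685 and Gli1 at 0.667 CPM per kilobase. Per length, the Ihh level was thus 23.9-fold that of Gli1, the lowest of the 9.

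The promoter of Ihh is shown because Ihh had the highest level per length and fell in the older transgenic mice. The 250 bases before its start, from RefSeq on GRCm38.p6, lie at chr1:74951673-74951922 on the minus strand, with both matches to the GC box GGGCGG (either strand), a binding motif of Sp1-type factors, in capitals.
Ihh promoter: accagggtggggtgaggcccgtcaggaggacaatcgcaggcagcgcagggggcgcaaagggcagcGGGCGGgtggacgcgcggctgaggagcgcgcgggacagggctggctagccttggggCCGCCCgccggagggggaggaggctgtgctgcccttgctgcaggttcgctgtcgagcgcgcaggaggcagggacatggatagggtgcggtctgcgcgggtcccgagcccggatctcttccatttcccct
The window is 72% G and C. Matches to GGGCGG were counted in the same 250 bases of the 7 members found in the RefSeq promoter table (Shh and Gli1 were not matched): 2 each for Ihh, Gli3 and Hhip, 1 each for Ptch1, Gli2 and Sufu, and 0 for Smo. Of all 32851 mouse promoters in that table, 32.7% held a match before the start. The Gli consensus GACCACCCA, searched on both strands in 300 bases (250 before to 50 after the start), was found in 0 of the 7 and in 0.253% of all promoters. These letters are not in these windows, which says nothing of Gli sites elsewhere.

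At 80 days 4 of the 9 genes were lower in transgenic than in wild-type mice, Shh, Ihh, Smo and Gli3, and 0 were higher. Of all genes tested, 41.3% were called, 22% lower and 19.4% higher, so many genes outside the pathway moved at this age. The median log2 fold change of the 9 was -0.58, against -0.074 over all genes tested. With no composition factor 2 of the 9 were called, Shh and Ihh. Where groups are said below not to overlap, the share of all genes tested that did so was not counted.

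Both ligands fell in the transgenic pylorus at 80 days. Shh, the ligand known for stomach epithelium and for parietal cell function, is annotated on GRCm38 at chr5:28456815-28467256 on the minus strand. Its level was 18.7, 38.7 and 42.4 CPM in the 3 D80WT libraries and 14.2, 8.26 and 5.86 CPM in the 3 D80SV libraries, so the groups did not overlap. In bulk tissue such a fall cannot be told apart from fewer cells of the type that makes the transcript. At 60 days the values were 50.9, 26.1 and 24.04 CPM in wild-type and 38.3, 33.3 and 28.2 CPM in transgenic mice, which overlap. Group means were 33.7 ± 14.97 (D60WT), 33.3 ± 12.7 (D80WT), 33.2 ± 5.07 (D60SV) and 9.43 ± 4.28 CPM (D80SV) (SD, n = 3 each). The 80-day fold change was -1.82 on the log2 scale (SE 0.40, 95% interval -2.68 to -0.95), 28.4% of the wild-type level (edgeR adjusted p = 0.00387). The 60-day difference was -0.017 (SE 0.38, adjusted p = 0.994). Shh exons overlap those of Gm26894 (361 bases) and 9530036O11Rik (446 bases) on the other strand, and those of Gli1, Gli3 and Hhip overlap shorter stretches of other genes likewise. The libraries were stranded per the labels, but the strand setting of the counting is not given in the sources used here, so reads of the overlaps cannot be told apart.

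Ihh, made by surface epithelium of the stomach, showed a smaller fall with less spread; it is annotated at chr1:74945315-74951672. D80WT libraries gave 69.2, 52.3 and 54.6 CPM and D80SV libraries 37.1, 23.9 and 26.2 CPM, again without overlap. The 60-day libraries stood at 60.6, 51.0 and 54.9 CPM (wild-type) and 57.5, 47.3 and 47.1 CPM (transgenic). The 80-day difference was -1.01 log2 (SE 0.17, 95% interval -1.40 to -0.63, adjusted p = 0.001), 49.6% of wild-type. At 60 days it was -0.13 (SE 0.17, adjusted p = 0.821). The 25 alternative settings include a refit of counts recovered from the deposited normalized signal, which nearly repeats the main fit. In all 25 the 80-day calls for Shh and Ihh held, with adjusted p up to 0.0217 for Shh and 0.0194 for Ihh. In the order of group means, D80SV was the lowest group for both and the only one whose range lay apart from its neighbour; the ranges of the other three overlapped in sequence.

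**Figure D1:**
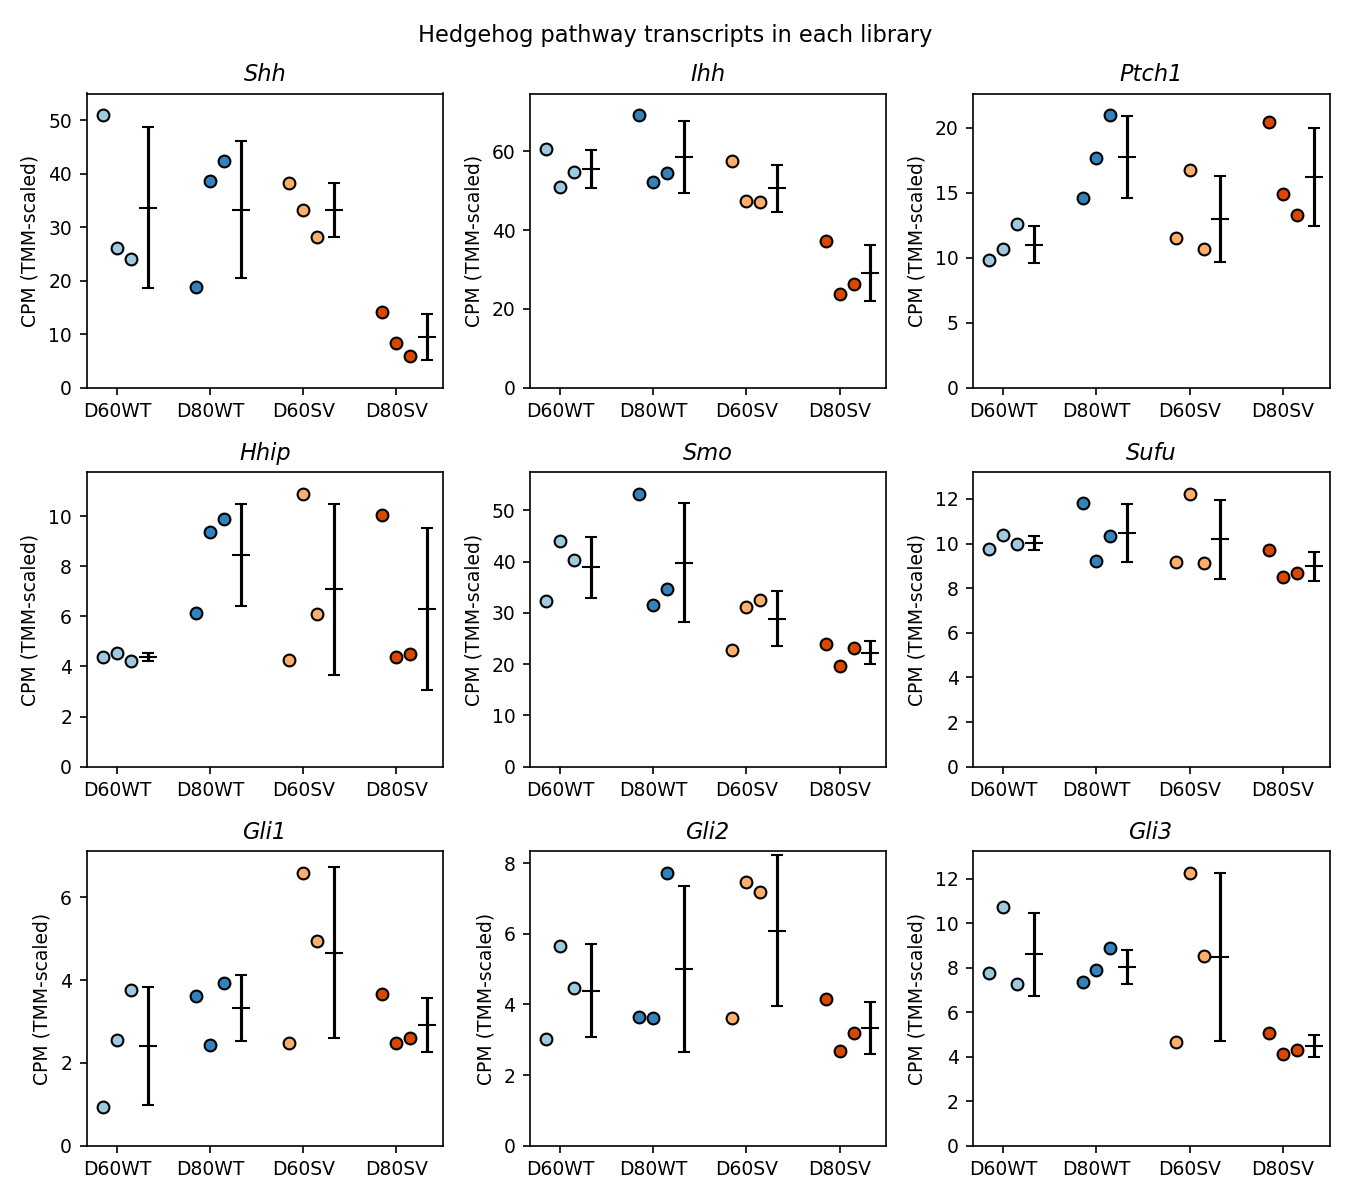
Levels of the 9 Hedgehog genes in each library, as CPM after TMM scaling, in wild-type (blue) and transgenic (orange) mice at 60 and 80 days; points are the 3 libraries of a group and the bar is mean ± SD. Shh and Ihh are lowest in the 3 D80SV libraries, while Gli1 and Hhip overlap between the genotypes at both ages.

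Epithelial genes moved beside the ligands, at an age when 22% of all genes tested were called lower and 19.4% higher. In the list of 11 pit cell genes, markers of gastric surface mucous cells, 10 fell at 80 days and 0 rose (median log2 fold change -2.06, against -0.074 over all genes tested), with Muc5ac, the surface mucin, at -4.58 (adjusted p = 3.54e-05). Their summed level was 58058 to 148387 CPM in D80WT and 17986 to 32448 CPM in D80SV. Of 9 tested genes listed for the acid-secreting parietal cells, 3 fell and 1 rose. Means of the acid pump genes Atp4a and Atp4b were only 0.521 and 0.204 CPM in D80WT, so this list says little of parietal cells. In D80SV these means were 8.47 and 0.136 CPM. All 16 neuroendocrine genes rose (median 4.13), with Chga at 5.13. Set against the mean log2 level of the pit cell list, Shh stood at -5.84 on average in D80WT and -5.59 in D80SV, the ranges -5.91 to -5.76 and -5.88 to -5.31 overlapping. Ihh stood at -4.95 in D80WT and -3.91 in D80SV, and D80WT replicate 1 at -3.98 lay within the D80SV range of -4.06 to -3.73. A gene of unchanged level would rise against this list, as the list itself fell (median -2.06). The part of pit cell transcripts in the ligand result was not tested.

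Neither Ptch1 nor Hhip passed the threshold at either age. Ptch1, the Hedgehog receptor and a classical target, is annotated at chr13:63508328-63573598 and gave 14.6, 17.7 and 21.0 CPM in D80WT and 20.5, 14.9 and 13.3 CPM in D80SV, overlapping throughout. Its 80-day difference was -0.13 log2 (SE 0.22, 95% interval -0.61 to 0.35, adjusted p = 0.664), an interval that spans no difference and is too wide to show that the levels were alike. At 60 days the values were 9.82, 10.6 and 12.6 CPM (D60WT) and 11.6, 16.8 and 10.7 CPM (D60SV), a difference of 0.24 (SE 0.22, adjusted p = 0.714). Hhip (chr8:79965851-80058006), which binds and sequesters the ligands at the cell surface, read 6.14, 9.35 and 9.88 CPM in D80WT and 10.03, 4.39 and 4.49 CPM in D80SV. The high D80SV value is replicate 1, the library with the most pancreatic transcripts and the male-type library of that group. The 80-day Hhip difference was -0.42 log2 (SE 0.38, adjusted p = 0.399), and -0.93 without that library (adjusted p = 0.0635).

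Smo, the transducer that Ptch1 holds in check, lies at chr6:29735503-29761365. It read 53.2, 31.6 and 34.7 CPM in D80WT and 23.9, 19.7 and 23.1 CPM in D80SV, the groups lying apart. The 80-day difference was -0.84 log2 (SE 0.21, 95% interval -1.30 to -0.38, adjusted p = 0.00787), 55.8% of wild-type. Without a composition factor it was -0.44 (adjusted p = 0.193), the setting that also shifted the median of all genes from -0.074 to 0.34. With sex as a covariate the Shh, Ihh and Smo calls held and the Gli3 call did not. That covariate rests on D80SV replicate 1 and cannot separate sex from other traits of that library. At 60 days the values were 32.3, 44.0 and 40.3 CPM (D60WT) and 22.8, 31.3 and 32.6 CPM (D60SV), a difference of -0.43 (adjusted p = 0.377). Sufu (chr19:46396896-46488804), which holds the Gli factors in the cytoplasm, lay between 8.52 and 12.2 CPM in all 12 libraries, with an 80-day difference of -0.22 (SE 0.16, 95% interval -0.57 to 0.13, adjusted p = 0.294).

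Of the 3 Gli factors, Gli3 was called lower at 80 days and Gli1 and Gli2 were not. Gli3 (chr13:15463235-15730026), the family member that serves chiefly as a repressor, gave 7.36, 7.90 and 8.88 CPM in D80WT and 5.05, 4.13 and 4.31 CPM in D80SV without overlap. The difference was -0.84 log2 (SE 0.30, 95% interval -1.48 to -0.19, adjusted p = 0.0399). The call is not firm: it ended in 11 of 25 alternative settings, among them leaving out both libraries named above (-0.86, adjusted p = 0.111), sex as a covariate (-0.93, adjusted p = 0.0593) and no composition factor (-0.42, adjusted p = 0.332). It also ended without any 1 of 7 libraries: D60WT replicate 1, D80WT replicates 2 and 3, D60SV replicate 3 and each D80SV library, where the difference stayed between -0.93 and -0.76 (adjusted p = 0.0541 to 0.13). Gli1 (chr10:127329882-127341974), the classical target of the pathway, read 3.62, 2.43 and 3.94 CPM in D80WT and 3.66, 2.47 and 2.60 CPM in D80SV, a difference of -0.19 (SE 0.45, 95% interval -1.18 to 0.80, adjusted p = 0.76). Gli2 (chr1:118834132-119053619), the main activator, read 3.66, 3.62 and 7.71 CPM against 4.15, 2.69 and 3.19 CPM, a difference of -0.58 (SE 0.38, 95% interval -1.40 to 0.25, adjusted p = 0.242).

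At 60 days 0 of the 9 genes passed the edgeR threshold, and 0 had an unadjusted p under 0.05; DESeq2 and limma-voom also called 0. Across all 15369 genes tested, 3.9% were called in that comparison and 2255 had an unadjusted p under 0.05. The widest member interval was that of Gli1, a log2 difference of 0.94 (95% interval -0.07 to 1.94), with 0.926, 2.54 and 3.76 CPM in D60WT and 2.48, 6.58 and 4.94 CPM in D60SV. Gli2 gave 3.03, 5.65 and 4.47 CPM in D60WT and 3.62, 7.46 and 7.19 CPM in D60SV, and Gli3 7.78, 10.7 and 7.28 against 4.68, 12.3 and 8.51 CPM. Hhip read 4.38, 4.52 and 4.24 CPM in D60WT and 4.27, 10.9 and 6.09 CPM in D60SV, a difference of 0.69 (SE 0.39, adjusted p = 0.471).

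**Figure D2:**
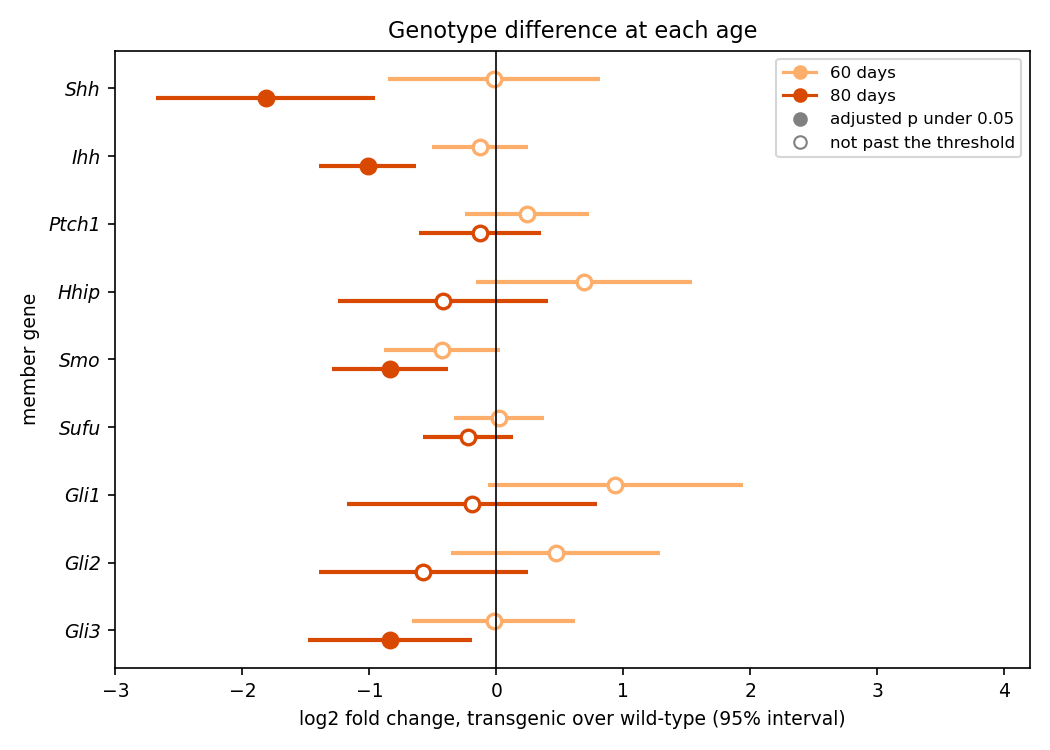
Log2 fold change of the 9 genes, transgenic over wild-type, at 60 days (light) and 80 days (dark) with 95% intervals; filled points passed an adjusted p of 0.05 by edgeR. Shh, Ihh, Smo and Gli3 are filled at 80 days and none is filled at 60 days.

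Between 60 and 80 days, 3 of the 9 fell in transgenic mice: Shh by 1.82 (SE 0.39, adjusted p = 0.00515), Ihh by 0.80 (SE 0.17, adjusted p = 0.00521) and Gli3 by 0.91 on the log2 scale (SE 0.30, adjusted p = 0.0317). Of all genes tested, 35.7% were called there, 18% lower and 17.7% higher. The comparison shares the D80SV libraries with the 80-day genotype comparison, and so is not independent of it. The Gli3 call ended in 11 of 25 alternatives, and the Ihh call without a composition factor (-0.44, adjusted p = 0.0732). Without D60SV replicate 2 the Gli3 difference was -0.50 (adjusted p = 0.169). Gli2 stood at -0.86 (SE 0.38, adjusted p = 0.0928). It was called without D80WT replicate 3 (-0.86, adjusted p = 0.0499), without D60SV replicate 1 (-1.13, adjusted p = 0.0452) and without the 2 libraries that stand apart (-1.05, adjusted p = 0.0474). Ptch1 stood at 0.32 (SE 0.22, adjusted p = 0.28), and was called higher without a composition factor (0.67, adjusted p = 0.0409).

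In wild-type mice 0 of the 9 genes, and 0% of all genes tested, passed between 60 and 80 days by edgeR. At an unadjusted p under 0.05 stood 1925 genes, Ptch1 and Hhip among them, and DESeq2 called 254 genes and 0 of the 9. The log2 difference of Ptch1 was 0.69 (SE 0.22, adjusted p = 0.296) and that of Hhip 0.95 (SE 0.39, adjusted p = 0.356). For both genes the 3 libraries of each age lay apart, and how many of all genes tested did so was not counted. Age coincides with sex in these 6 libraries, and the 2 cannot be told apart.

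The interaction, which asks whether the genotype difference changed between the ages, called 0 of the 9 by edgeR and 5% of all genes tested. An unadjusted p under 0.05 was found for 2 of the 9 and for 3567 of all 15369 genes tested. The 2 were Shh (-1.80, SE 0.55, adjusted p = 0.0772) and Ihh (-0.88, SE 0.25, adjusted p = 0.0608). DESeq2 called both, at adjusted p of 0.0196 and 0.0262, and limma-voom called 0 of the 9. A genotype difference that passes at 80 days and not at 60 is therefore not shown by edgeR to differ between the ages for any of the 9. Over the alternatives the adjusted p of Ihh ran from 0.0167 to 0.202 and that of Shh from 0.016 to 0.188.

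Genes that release and carry the ligands moved both ways at 80 days, 3 of 10 tested up and 3 down. Over all genes tested, 19.4% were higher and 22% lower. Disp2, a homologue of the ligand releaser Disp1, rose from 5.98 ± 1.44 to 132 ± 25.6 CPM (SD, n = 3 each), a log2 difference of 4.46 (SE 0.27, adjusted p = 6.47e-07). It was also the 1 gene of the list called at 60 days, 2.39 (SE 0.25, adjusted p = 1.76e-04), where D60WT libraries ran from 4.62 to 7.84 CPM and D60SV libraries from 23.8 to 38.2 CPM; that call ended with sex as a covariate, and without D60SV replicate 1 or by DESeq2 the co-receptor, transducer and release lists together gave 3. Disp1 itself, which releases lipid-modified ligand from the cell, fell from 38.8 ± 6.48 to 13.7 ± 2.57 CPM (log2 -1.50, adjusted p = 8.14e-04). Scube2, a secreted carrier of the ligand, fell (-1.57, adjusted p = 0.00188) and its relative Scube1 rose (1.51, adjusted p = 0.00197). The glypican Gpc3 fell by 2.03 (adjusted p = 5.81e-04) and Gpc6 rose by 1.02 (adjusted p = 0.00437). Dhh, the third ligand, read 1.46, 0.794 and 0.823 CPM in D80WT and 1.53, 2.10 and 2.48 CPM in D80SV, a log2 difference of 0.98 (adjusted p = 0.0859); it was called higher without D80WT replicate 1 (1.32, adjusted p = 0.0405) and without a composition factor (1.38, adjusted p = 0.0342).

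Of the 5 co-receptors tested, 2 fell at 80 days and 0 rose, a share called near the 41.3% over all genes tested. Cdon, a ligand co-receptor, read 24.6, 29.0 and 28.9 CPM in D80WT and 14.3, 13.5 and 14.5 CPM in D80SV (log2 -0.96, adjusted p = 7.64e-04). Gas1, a further co-receptor, read 61.1, 37.3 and 55.5 CPM against 24.3, 21.2 and 16.5 CPM (-1.31, adjusted p = 0.00446). Boc, another co-receptor, stood at -0.28 (adjusted p = 0.367).

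Of 27 transducers tested, 4 rose, 7 fell and 16 did not pass, close to the 41.3% called over all genes. Arrb1, an arrestin, fell by 1.21 (adjusted p = 8.1e-05) and Arrb2 rose by 1.56 (adjusted p = 4.82e-04). Prkar1a, the regulatory subunit of protein kinase A, rose by 1.01 (adjusted p = 1.09e-04), and Smurf1, a ubiquitin ligase, fell by 0.73 (adjusted p = 0.00202). Kif7, the ciliary kinesin that scaffolds Gli factors, stood at -0.40 (adjusted p = 0.397). Over the ligand-release, co-receptor and transducer lists together 7 rose and 12 fell, and without a composition factor 14 rose and 7 fell, so the balance of directions turned with that setting. With age in transgenic mice 9 rose and 8 fell, beside 17.7% higher and 18% lower over all genes tested. The count that rose was 4 without D80SV replicate 2 and 5 without D60SV replicate 1. Without a composition factor 16 rose and 2 fell. Disp2 was also called in the interaction (2.07, SE 0.35, adjusted p = 0.0117), a call that ended with sex as a covariate.

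Among the 29 cilium genes tested, 10 rose, 0 fell and 19 did not pass, beside 19.4% higher and 22% lower over all genes tested. Ift80, of the transport machinery of cilia, rose from 8.06 ± 2.86 to 28.6 ± 3.74 CPM (log2 1.83, adjusted p = 1.83e-04), Tulp3, an adaptor for ciliary receptors, by 1.06 (adjusted p = 0.00561), Ift57 by 1.03 (adjusted p = 0.00973) and Ift27 by 0.75 (adjusted p = 0.00751). The list median was 0.30. The count fell to 6 without D80WT replicate 2, D80SV replicate 2 or D80SV replicate 3, to 5 without the 2 libraries that stand apart, and rose to 18 without a composition factor.

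A list set up for Hedgehog targets in the gut gave few calls at 80 days: of 18 tested, 5 fell, 1 rose and 12 did not pass, with a median of -0.40. Whether each listed gene is a Hedgehog target in the pylorus was not tested. Over all genes tested 22% were lower and 19.4% higher, so the count of lower genes in the list is near the background, and without a composition factor 3 fell and 3 rose. Myocd, a master regulator of smooth muscle, read 20.3, 14.03 and 24.2 CPM in D80WT and 7.12, 4.42 and 3.78 CPM in D80SV (log2 -1.93, adjusted p = 0.00172). Igfbp6 (-1.88, adjusted p = 0.00345), a growth factor binding protein, and the stomach mesenchyme factors Nkx3-2 (-1.90, adjusted p = 0.00364) and Barx1 (-1.12, adjusted p = 0.0252) also fell. Bmp4, a secreted signal of the mesenchyme, read 33.1, 21.4 and 28.5 CPM against 15.7, 11.9 and 12.9 CPM (-1.04, adjusted p = 0.0083), and without a composition factor -0.63 (adjusted p = 0.11). Sfrp1, a Wnt antagonist, rose by 1.11 (adjusted p = 0.0355), a call lost without D80WT replicate 2, D80SV replicate 2 or D80SV replicate 3. The forkhead factors Foxf1 (-0.44, adjusted p = 0.255), Foxf2 (-0.44, adjusted p = 0.198) and Foxl1 (0.27, adjusted p = 0.729) did not pass.

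**Figure D3:**
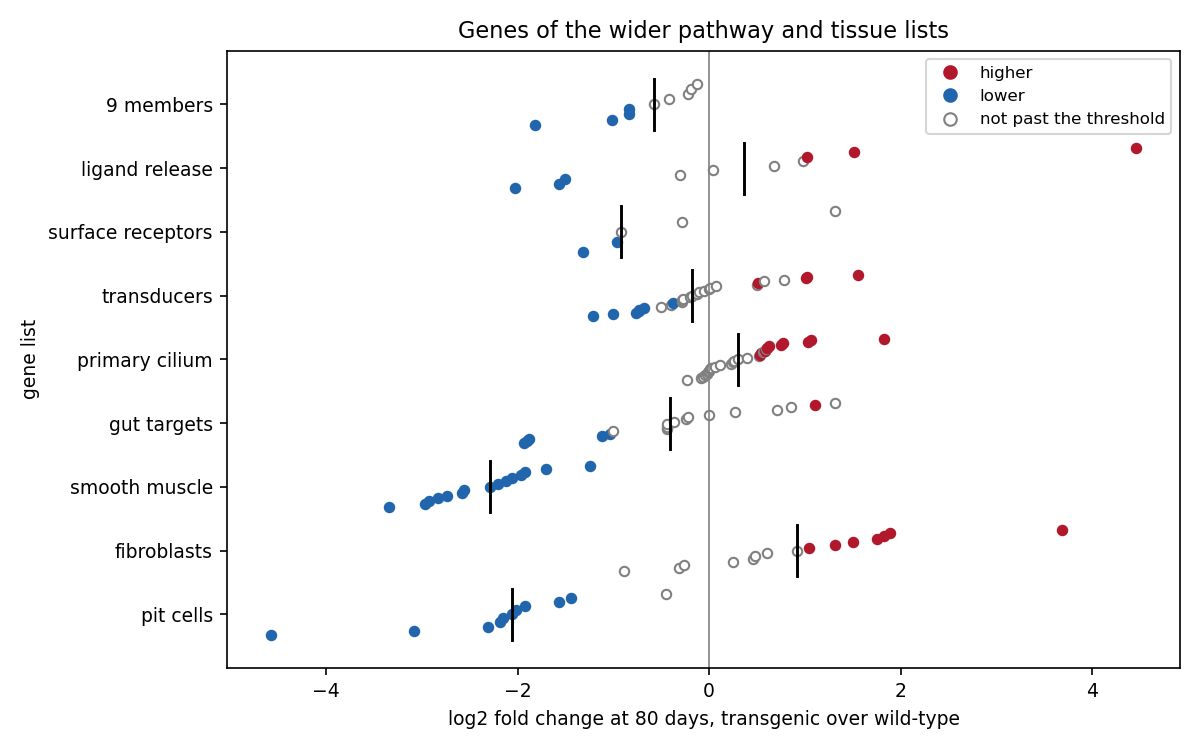
Log2 fold change at 80 days, transgenic over wild-type, of every tested gene in the Hedgehog lists and in lists for smooth muscle, fibroblasts and pit cells; each point is a gene, coloured where it passed an adjusted p of 0.05, and the bar is the list median. The 15 smooth muscle genes lie at a median of -2.28 and the 15 fibroblast genes at 0.92.

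Mesenchymal tissue lists moved in opposite ways beside these genes, while 22% of all genes tested were called lower and 19.4% higher at 80 days. All 15 smooth muscle genes fell at 80 days (median -2.28), with Des, the muscle intermediate filament, at -2.92, and their summed level ran from 12776 to 20703 CPM in D80WT and from 3130 to 3281 CPM in D80SV. Of 15 fibroblast genes, 7 rose and 0 fell (median 0.92), the sum running from 1958 to 2427 CPM in D80WT and from 4684 to 5427 CPM in D80SV. Set against the mean log2 level of the smooth muscle list, Ptch1 stood at -4.97 in D80WT and -2.77 in D80SV, Gli1 at -7.37 and -5.21, and Smo at -3.83 and -2.30. For these and for Gli2, Gli3 and Hhip the 3 D80SV libraries lay above all 9 other libraries. Set against the fibroblast list the order turned: Ptch1 stood at -1.67 in D80WT and -2.75 in D80SV, Gli1 at -4.07 and -5.19, Gli3 at -2.80 and -4.56, and Smo at -0.53 and -2.28. There the 3 D80SV libraries lay below all 9 others for each of the 6 genes, Hhip by the smallest margin (-3.33 in D80SV replicate 1 against -3.31 in D80WT replicate 1). A gene of unchanged level would shift the same ways, as the smooth muscle list itself fell (median -2.28) and the fibroblast list rose (0.92). The pattern therefore says little of the members themselves. These differences carry no test, and the part of either tissue in the values of the members was not tested.

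**Figure D4:**
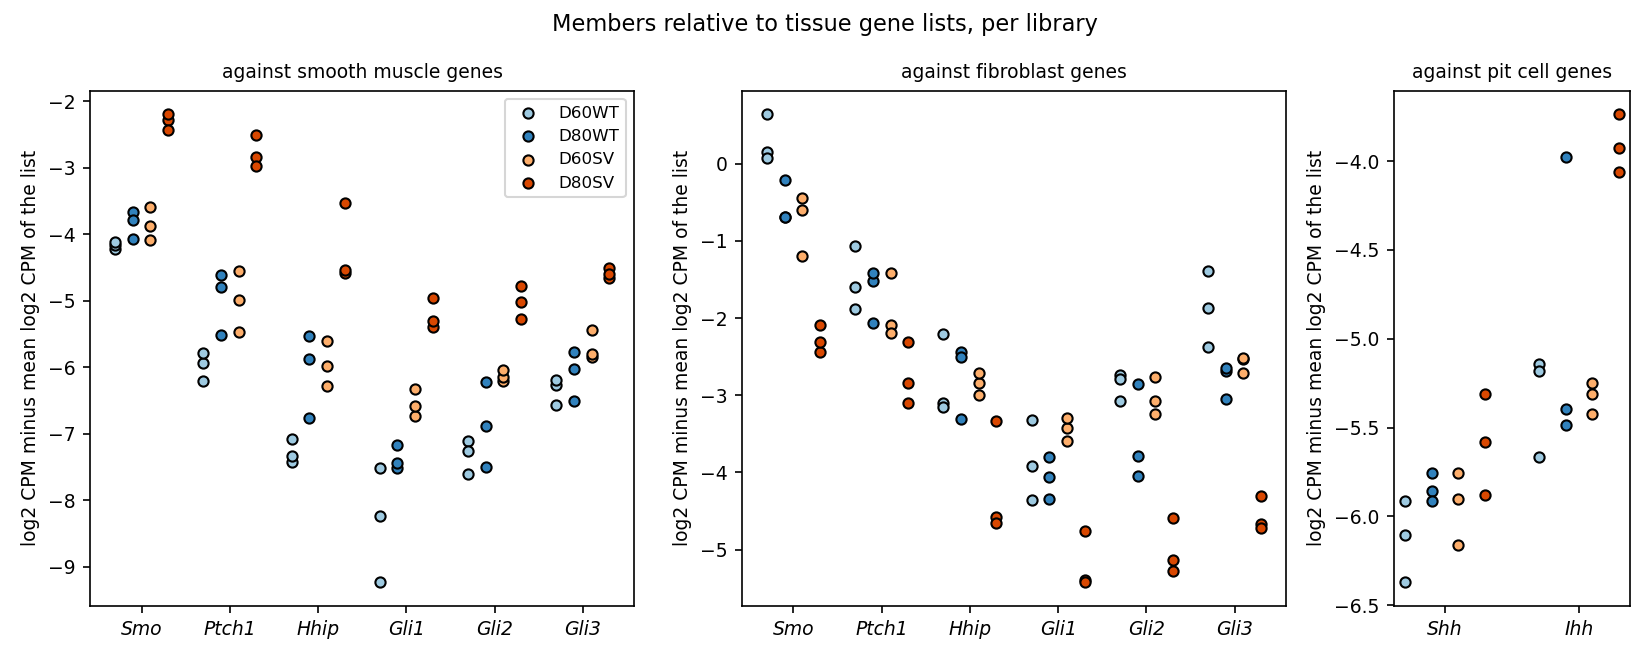
Log2 CPM of Hedgehog genes minus the mean log2 CPM of smooth muscle, fibroblast or pit cell genes, in each of the 12 libraries (points, coloured by group). The 3 D80SV libraries lie above the others against smooth muscle genes and below them against fibroblast genes. A gene of unchanged level would shift the same ways, because the smooth muscle list itself fell and the fibroblast list rose. Against pit cell genes it would rise, because that list fell too.

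Across the 12 libraries, the genes most like each of 4 members were found by the root mean square difference of centred log2 CPM among 13946 genes. Nearest to Shh were Evpl and Tcf23 (both 0.20) and Ankdd1b (0.21), beside a spread of 0.92 for Shh itself. Nearest to Ihh were Golph3l and Grhl2 (both 0.10) and Rab3d (0.12), beside 0.45. Nearest to Gli1 were Cbr2 (0.24), Folr2 (0.29) and Ccdc8 (0.34), beside 0.65. Nearest to Ptch1 were Fbln1 (0.18), itself in the fibroblast list, B3galtl (0.20) and Cachd1 (0.21), beside 0.35. The libraries share groups and tissue makeup, so likeness is a description of these libraries.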

How the data were processed

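RNA of mouse pylorus was sequenced from stranded mRNA libraries, per the labels' protocols. The authors deposited raw read counts per gene for 12 libraries and a table of normalized signal for 15465 genes; per the submitters' processing notes, STAR 2.5.3a, HTSeq 0.9.1 and edgeR 3.16.5 were used with build mm10. The step of each library was the median ratio of raw to normalized values, and so was taken from the raw counts. Scaled by it, 100% of the values of the deposited normalized signal were whole to within 0.01 and equal to the raw counts. The count test on these recovered reads was an alternative added after the data were seen, and it nearly repeats the main fit. It called 599, 6353, 5490, 0 and 766 genes at 60 days, at 80 days, with age in transgenic and in wild-type mice and in the interaction. Counts were fitted with edgeR 4.0.16 (R 4.3.3): filterByExpr by group, TMM factors (0.805 to 1.30), 1 coefficient per group, and the quasi-likelihood test with Benjamini-Hochberg adjustment over 15369 genes, which held 99.975% of counts. The biological coefficient of variation was 24.2%, with 8 residual degrees of freedom. DESeq2 1.42.0, limma 3.58.1, other scalings and filters, a replicate block, sex as a covariate and leaving out libraries were alternatives. The fit was tested on simulated data. List members and rules were chosen with earlier results of these data known. Named were all 9 genes, the fixed companions (1 item is not reported here), up to 4 genes of smallest p per pathway list, up to 2 per tissue list, and the 3 genes most like each of 4 members (log2 CPM, prior count 2, mean of at least 1 CPM). Gene positions and exon lengths are from GENCODE M21.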

Additional observations from a re-analysis of the deposited data

How the results depend on the processing

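The 80-day calls of Shh and Ihh, and the fall of Shh with age in transgenic mice, held in all 25 alternatives. These include the refit of recovered counts, which nearly repeats the main fit and adds no separate check. At 80 days the 9 genes gave 2 calls without a composition factor against 4. Without that factor the uncalled log2 values of Ptch1 (0.29; 0.034 with upper-quartile factors), Gli1 (0.22), Hhip (0.000737), Sufu (0.19), Boc (0.13) and Kif7 (0.028) turned positive, and the share of called genes that were higher went from 46.8% to 83.6% (63.0% with upper-quartile factors). Also without it, Hhip (0.16) and Sufu (0.17) turned with age in transgenic mice, and the Sufu interaction was 0.052.

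All genes called at 60 days numbered 599, 992 by DESeq2 and 85 with sex as a covariate (378 to 736 leaving out 1 library, lowest without D60WT replicate 3). At 60 days uncalled values turned for Shh (0.035 upper-quartile, 0.13 no factor, 0.088 limma-voom, 0.054 limma on deposited values, 0.99 with sex), Ihh (0.44 with sex) and Gli3 (0.023, 0.095 and 0.24 with upper-quartile factors, no factor and sex). The wild-type age comparison called 254 genes by DESeq2, 5 with only those groups, 1 with sex and 7 without the 2 libraries that stand apart (0 to 396 leaving out 1 library, highest without D80WT replicate 1). There Shh was 0.048 without a factor, 0.0051 by limma-voom and 0.99 with sex, Gli2 -0.27 without the 2 libraries and Gli3 0.16 with sex. The interaction called 768 genes, 1745 by DESeq2, 423 by limma-voom, 1320 by limma on deposited values and 99 with sex (193 to 2419 leaving out 1 library), and among the 9 genes 2 by DESeq2, 1 by limma on deposited values and 1 without the 2 libraries (0 to 2 leaving out 1 library). Transgenic age calls, 5490, ran from 3507 (without D80SV replicate 2) to 6594 leaving out 1 library, and were 6921 with only those groups fitted. The cause of these moves was not tested. Values with sex rest on D80SV replicate 1, the male-type library of the only group with both types.

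Leaving out 1 library, uncalled log2 values ran at 60 days from -0.21 to 0.40 (Shh), -0.40 to 0.27 (Gli3) and -0.14 to 0.092 (Sufu); at 80 days from -0.34 to 0.038 (Ptch1) and -0.038 to 0.89 (Foxl1); with age in transgenic mice from -0.67 to 0.33 (Hhip) and -0.26 to 0.011 (Sufu); and with age in wild-type mice from -0.23 to 0.41 (Shh), -0.054 to 0.16 (Ihh), -0.23 to 0.18 (Smo), -0.27 to 0.41 (Gli2), -0.20 to 0.096 (Gli3) and -0.036 to 0.14 (Sufu).

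Replicate numbers did not pair the libraries: deviations of 18 same-numbered pairs correlated at -0.34 to 0.39, 6 of them over 0.1, and a library correlated best with its own number in 14 of 36 pairings. With a replicate block the interaction called 1 of the 9 genes in place of 0, and the uncalled Shh values were 0.026 at 60 days and 0.11 with age in wild-type mice.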

Other observations

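Within the D60SV group, replicate 1 read lowest for Gli1 (2.48 CPM), Gli2 (3.62 CPM), Gli3 (4.68 CPM), Hhip (4.27 CPM) and Smo (22.8 CPM). Ptch1 and Sufu were instead lowest in replicate 3, at 10.7 and 9.15 CPM against 11.6 and 9.19 CPM in replicate 1. Replicate 1 had the lowest summed level of the group for smooth muscle genes (8047 CPM, against 14406 and 16260 CPM) and for fibroblast genes (1219 CPM, against 2019 and 2872 CPM). Its Shh and Ihh levels, 38.3 and 57.5 CPM, were the highest of the group.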
